A study of Homo sapiens with 6 samples.

Results

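The genes described here build, cut and remodel the extracellular matrix around A549, a cell line long established from a human lung adenocarcinoma. They were chosen by symbol: every probe set whose single gene symbol in the platform annotation stood in a list of 40 genes for collagens, fibronectin and matricellular proteins, laminins, lysyl oxidases, metalloproteases and their inhibitors, the urokinase route, heparan sulfatases and syndecans. Of these, 39 genes were measured, of 22395 genes in all, and they were read by 40 probe sets of 53617. MMP2 had 2 probe sets, and LAMA3 was not analysed here. The list was drawn up with earlier results of these data known. Shares of members set beside those of all genes therefore describe the members and test nothing. RNA was measured on whole-transcript arrays in 3 groups of 2 arrays each: cells given Comp.2 at 2 µM, cells given Comp.4 at 2 µM, and cells given vehicle alone. All were A549 cells taken on day 2 after treatment began. Both agents are code names, and the labels call their family 646-PIP in the design text and 664-PIP in the treatment protocol. The series title describes them as histone acetyltransferase inhibitors that act at chosen DNA sequences.

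The extracellular matrix is a mesh of collagens, laminins and fibronectin to which cells attach through receptors. Matrix metalloproteases and the plasminogen activators cut that mesh, TIMP proteins block the metalloproteases, and lysyl oxidases crosslink collagen fibres. Syndecans carry heparan sulfate chains at the cell surface that hold growth factors, and the SULF enzymes remove sulfate groups from those chains outside the cell, which changes which factors they bind. Lung carcinoma cells in culture deposit basement membrane proteins and shed proteases, and SULF2 has been studied in lung tumours.

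SULF2 was the only member that passed the test, and it did so in both comparisons that held Comp.2. Its log2 level, the RMA signal after background correction and quantile normalization, was 8.64 and 8.66 in the Comp.2 arrays, against 7.63 and 7.75 under Comp.4 and 7.62 and 7.51 in vehicle. Both Comp.2 arrays stood above all 4 others, while the Comp.4 and vehicle arrays lay close together. The next nearest members were the urokinase gene PLAU under Comp.2 and the matrilysin gene MMP7 under Comp.4, and neither passed.

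The promoters of these 3 genes are shown because each was the member with the smallest p in a comparison with vehicle or the next to it. They are RefSeq windows of 300 bases on GRCh38.p14, from 250 bases before to 50 bases after the annotated start, printed 5′ to 3′ on the strand of the gene. Capitals mark matches to 4 short promoter motifs searched on both strands: the AP-1 site TGANTCA, the GC box GGGCGG, the TATA box TATAAA and the CCAAT box. SULF2 lies at chr20:47786578-47786877 on the minus strand, PLAU at chr10:73910360-73910659 on the plus strand and MMP7 at chr11:102530698-102530997 on the minus strand.
SULF2: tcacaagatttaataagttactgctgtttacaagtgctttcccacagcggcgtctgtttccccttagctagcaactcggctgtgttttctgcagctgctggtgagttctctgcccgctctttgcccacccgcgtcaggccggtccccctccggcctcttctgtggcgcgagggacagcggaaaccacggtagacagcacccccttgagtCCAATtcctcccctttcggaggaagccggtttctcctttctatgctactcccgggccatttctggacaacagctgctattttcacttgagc
PLAU: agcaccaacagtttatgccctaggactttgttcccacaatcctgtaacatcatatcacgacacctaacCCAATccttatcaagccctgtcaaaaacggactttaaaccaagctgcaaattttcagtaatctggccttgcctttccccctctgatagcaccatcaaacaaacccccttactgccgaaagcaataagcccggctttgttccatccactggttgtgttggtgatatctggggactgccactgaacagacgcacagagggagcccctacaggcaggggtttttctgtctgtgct
MMP7: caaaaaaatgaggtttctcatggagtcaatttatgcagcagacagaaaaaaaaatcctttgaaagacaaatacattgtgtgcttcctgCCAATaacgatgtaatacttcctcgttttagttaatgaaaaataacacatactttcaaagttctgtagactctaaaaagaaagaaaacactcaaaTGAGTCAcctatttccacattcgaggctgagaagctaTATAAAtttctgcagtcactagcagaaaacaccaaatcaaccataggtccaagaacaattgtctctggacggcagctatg
In the MMP7 window an AP-1 site began 67 bases before the start, a TATA box 30 bases before it and a CCAAT box 162 bases before it, and none of these matches overlapped. The SULF2 window held a CCAAT box 41 bases before the start and the PLAU window one 182 bases before it, with no match to the other motifs in either. Of 27 members with an entry, 3 held an AP-1 site (MMP7, MMP10 and PLAUR), against 7.76% of 27305 promoters. A GC box stood in 21 of the 27, against 44.6% of all promoters, and a CCAAT box in 12, against 35.7%. A TATA box stood in 3 of the 27, against 12.0%. The 27305 promoters were not filtered by gene type, and whether that bears on these shares was not tested. A match describes letters in these windows, not binding.

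Array medians lay between 4.55 and 4.56, and quantile normalization hides any shift common to most genes. Of the 39 members, 27 had a mean signal above that of the median gene and 12 below, where array signals understate differences. The median gap between the 2 arrays of a group was 0.08 under Comp.2, 0.08 under Comp.4 and 0.07 in vehicle, on the log2 scale. The largest was that of LOX under Comp.4, at 0.44. All 6 epithelial markers measured (such as EPCAM, KRT8 and CDH1) had a mean above the median gene, as 1 of 7 fibroblast, 1 of 6 endothelial and 1 of 6 leukocyte markers did. The fibroblast markers DCN, LUM and FAP stayed between 2.70 and 3.67 in every array. The other fibroblast markers measured were brighter: PDGFRB at 4.09 to 4.41, PDPN at 4.38 to 4.72, THY1 at 5.15 to 5.41 and ACTA2 at 5.72 to 6.84. No marker passed in any comparison. At an unadjusted p under 0.05 limma gave 2 of 7 fibroblast markers as higher under Comp.2 than vehicle (28.6%, against 6.23% of all genes). Against vehicle, Comp.4 had 2 of 6 epithelial markers lower (33.3%, against 7.88%) and 2 of 6 endothelial markers higher (33.3%, against 8.64%). Between the compounds 2 of 6 epithelial markers were higher under Comp.2 (33.3%, against 7.45%), and every other marker list had 0 or 1 in either direction. The labels do not say that the 2 arrays of a group came from separate cultures, so the p-values speak of the variation among these arrays alone, and that may be technical.

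The first comparison asked which of these genes Comp.2 altered against vehicle. SULF2, which trims heparan sulfate outside the cell, rose 2.13-fold, at 8.65 ± 0.01 under Comp.2 against 7.57 ± 0.08 in vehicle (log2, mean ± SD, n = 2 each). The difference was 1.09 on the log2 scale (SE 0.08, 95% interval 0.90 to 1.28, limma adjusted p = 0.0151). Its p ranked 6 of 22395 genes. The background share of all genes higher at an adjusted p under 0.05 was 0.134%, and the share lower was 0.0625%. In bulk RNA a change per cell and a change in how many cells carry a transcript cannot be told apart. The SULF2 call was lost when all probe sets were tested together (limma adjusted p = 0.0712), where 0 of the 22395 genes passed in either direction. It was also lost without any 1 of the Comp.2 or vehicle arrays. That leaves 1 array in a compared group, so the loss cannot be read as particular to SULF2. The SULF2 difference stayed between 1.03 and 1.14 without any 1 array.

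SULF1, the paralogue that removes the same sulfate groups, did not follow. It had 3.62 and 3.90 under Comp.2, against 3.63 and 3.72 in vehicle, a dim signal whose groups overlapped. Its difference was 0.08 (95% interval -0.17 to 0.33, adjusted p = 0.810), and it turned to -0.055 without the second Comp.2 array. The syndecan SDC1, a heparan sulfate core protein of epithelial cells, had 8.92 and 9.03 under Comp.2, against 8.64 and 8.55 in vehicle. That difference of 0.38 (95% interval 0.19 to 0.58) did not pass (limma adjusted p = 0.191). The groups did not overlap, which was part of the rule for naming members with their arrays. SDC4, a syndecan of focal adhesions, differed by -0.06.

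**Figure D1:**
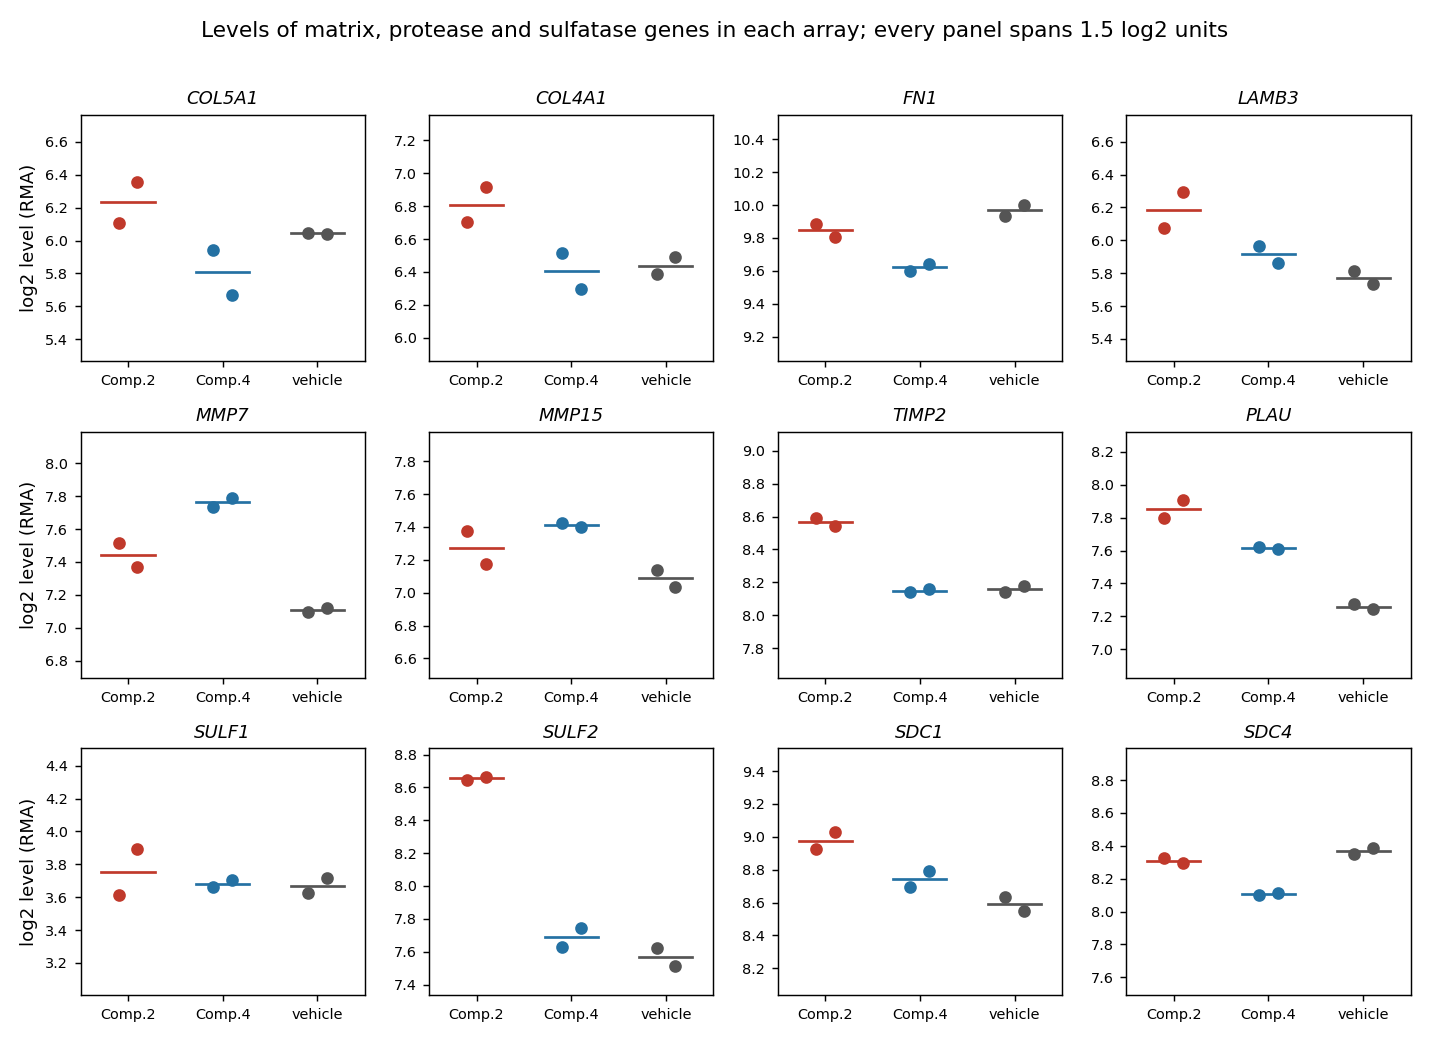
Log2 RMA level (vertical axis) of the 12 members named by rule in each array of Comp.2, Comp.4 and vehicle; points are arrays, bars are means of 2, and every panel spans the same range of log2 units. SULF2 stands at 8.64 and 8.66 under Comp.2, above every other array, while SULF1 overlaps between groups.

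Among the proteases, PLAU, which encodes the urokinase that turns plasminogen into plasmin, came nearest to the threshold under Comp.2. It had 7.80 and 7.91 under Comp.2, against 7.27 and 7.24 in vehicle. The groups did not overlap, as the naming rule required. The difference was 0.59 (SE 0.07, 95% interval 0.42 to 0.77), with a limma adjusted p of 0.0513. With protein-coding genes alone it passed (adjusted p = 0.0267), and also under a variance trend (0.00122) and with genes above the median signal alone (0.00645). It was further from passing with all probe sets (0.157), with these groups alone (0.106), with the replicate block (0.134) and without any 1 array (0.106 to 0.362). PLAUR, the receptor of urokinase, had a difference of 0.23, and PLAT, the tissue plasminogen activator, had 0.36; neither passed, and neither overlapped. PLAT had 5.59 and 5.50 under Comp.2, against 5.11 and 5.27 in vehicle. MMP7, a small metalloprotease of epithelial cells, differed by 0.33 (adjusted p = 0.236). The other 4 secreted metalloproteases, MMP1, MMP2, MMP9 and MMP10, had differences from -0.04 to 0.17 and none passed. For MMP2 this was the brighter probe set. Its dimmer probe set had 2.93 and 3.10 under Comp.2, against 2.96 and 3.08 in vehicle, with overlap. The sheddases ADAM9, ADAM10 and ADAM17 differed by 0.03, 0.10 and -0.08, ADAMTS1 by 0.03, and the membrane metalloproteases MMP14 and MMP15 by 0.01 and 0.19.

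TIMP2, an inhibitor of metalloproteases that also takes part in activating MMP2, had 8.59 and 8.54 under Comp.2, against 8.14 and 8.17 in vehicle. The difference was 0.41 (95% interval 0.24 to 0.57, limma adjusted p = 0.127) and did not pass, with no overlap, as the naming rule required. It passed under a variance trend (adjusted p = 0.00378) and when tested with genes above the median signal alone (0.0226), and it was 0.268 with all probe sets, 0.232 with the replicate block and 0.196 to 0.540 without any 1 array. TIMP1 differed by 0.18 and TIMP3 by 0.13.

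Of the structural genes, none passed under Comp.2. LAMB3, a chain of the laminin of epithelial anchoring sites, had 6.07 and 6.29 under Comp.2, against 5.81 and 5.73 in vehicle (difference 0.41, 95% interval 0.18 to 0.64, adjusted p = 0.230). Both Comp.2 arrays of LAMB3 were above both vehicle arrays, as the naming rule required. The same was so for all 4 laminin genes, against 22.7% of all genes. LAMB1 differed by 0.08, LAMC1 by 0.18 and LAMA5 by 0.10. The basement membrane collagen COL4A1 had 6.70 and 6.92 under Comp.2, against 6.39 and 6.49 in vehicle, a difference of 0.37 (adjusted p = 0.316), while its partner chain COL4A2 differed by 0.10. The fibrillar collagens COL1A1 and COL1A2, typical of fibroblasts, differed by -0.02 and 0.14, and COL5A1 by 0.19. COL6A1, COL6A2 and COL12A1, of beaded filaments and fibril surfaces, had 0.19, -0.05 and 0.05, with overlap in each. FN1, the fibronectin gene, differed by -0.12, and the matricellular genes SPARC, THBS1 and TNC by 0.10, 0.06 and 0.04. The crosslinking enzymes LOX and LOXL2 had 0.07 and -0.06. Beside these, the mean log2 level of the 7 fibroblast markers was 4.23 and 4.34 under Comp.2, against 4.19 and 4.12 in vehicle, and among them ACTA2 differed by 0.62 (adjusted p = 0.289). Without ACTA2, set apart after its values were seen, the mean of the other 6 was 3.88 and 3.93 under Comp.2, against 3.89 and 3.82 in vehicle, and the groups overlapped. Their part in the collagen and laminin values was not tested.

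Counted over all 39 members, 1 was higher under Comp.2 at the adjusted threshold, 0 were lower and 38 did not pass. Because the members were chosen with earlier results of these data known, the shares below are descriptive. At an unadjusted p under 0.05 limma gave 9 higher, or 23.1%, against a background of 6.23% of all genes, and 0 lower, against 4.94%. Most members are brighter than the median gene, so a background of all genes is unlike them. A limma fit of the 11197 genes above the median signal alone gave 1036 higher and 1047 lower at that unadjusted threshold. The groups did not overlap in 22 members that were higher (56.4%, against 22.7% of all genes) and 3 that were lower (7.69%, against 21.0%). The median difference was 0.10, against 0.004 over all genes. Above 0 were 31 members (79.5%), against 51.3% of all genes and 67.5% of the 157 wider pathway genes read below. After a further quantile normalization over the named genes the median was 0.10 and 30 members were above 0. Without the second Comp.2 array the median was 0.062 and without the first 0.14, the range over all single arrays left out, with 27 to 34 members above 0. Over the 27 members above the median signal it was 0.18. The count that passed was 5 under a variance trend (SULF2, PLAU, TIMP2, SDC1 and MMP7) and 4 of 27 with genes above the median signal alone. Over all 22395 genes the variance trend gave 226 higher and 162 lower. Of the 11197 genes above the median signal, 154 passed as higher and 79 as lower. For 38 members the 95% interval lay within a 2-fold change in either direction on the RMA scale, with SULF2 the exception, and for 31 it lay within 1.41-fold.

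**Figure D2:**
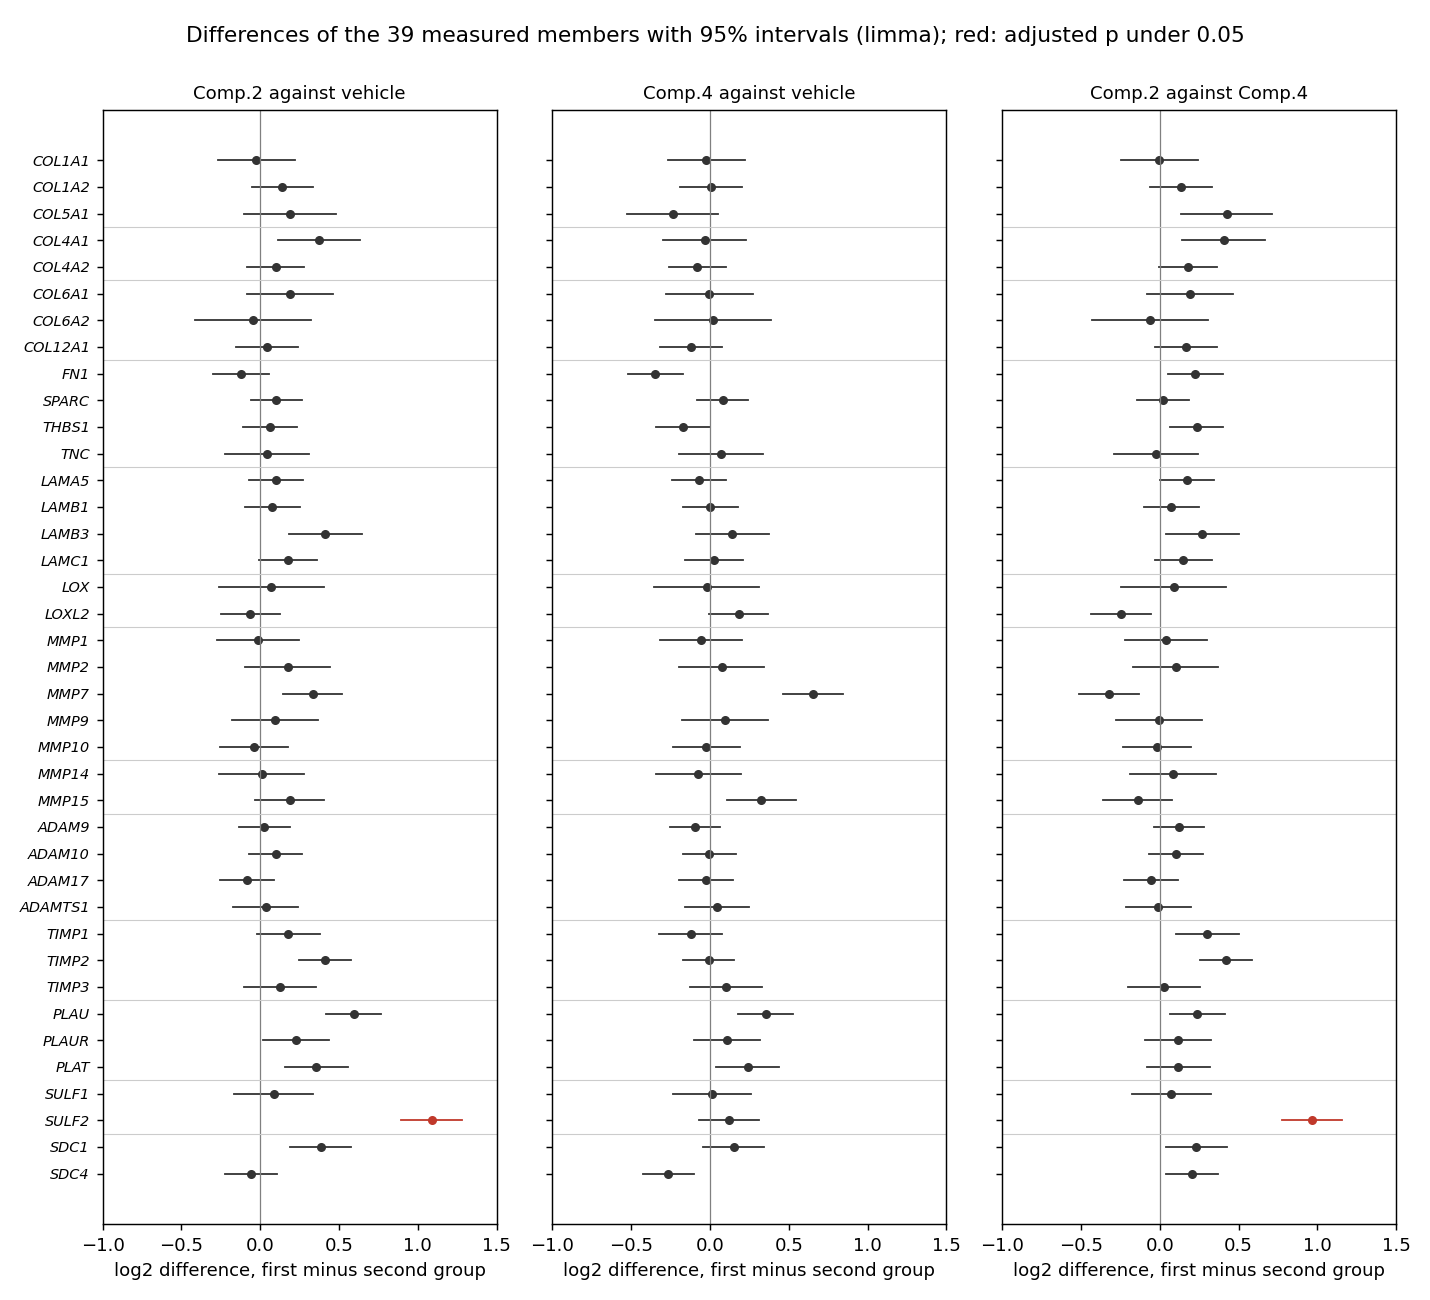
Log2 difference (horizontal axis, first minus second group) of each of the 39 measured members, ordered by role, with the 95% interval from limma, for the 3 comparisons. SULF2 is the only member marked as past the adjusted threshold, at 1.09 against vehicle and 0.97 against Comp.4; under Comp.4 its interval crosses 0.

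The second comparison asked which of these genes Comp.4 altered against vehicle, and none passed. SULF2 differed by 0.12 (95% interval -0.07 to 0.31, adjusted p = 0.495), at 7.69 ± 0.08 under Comp.4 against 7.57 ± 0.08 in vehicle (n = 2 each). Without any 1 array that difference ran from 0.063 to 0.18. SULF1 had 3.66 and 3.70 under Comp.4, against 3.63 and 3.72 in vehicle, with overlap and a difference of 0.01. After a further quantile normalization that difference was -0.019.

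MMP7 had the largest difference of any member under Comp.4. It stood at 7.74 and 7.79 under Comp.4, against 7.10 and 7.12 in vehicle, with a difference of 0.65 (SE 0.08, 95% interval 0.47 to 0.84, adjusted p = 0.0551). Both treated arrays lay above both vehicle arrays by far more than the gap within either group, yet the adjusted p missed the threshold. It was 0.00108 under a variance trend, 0.0081 with genes above the median signal alone, and from 0.104 to 0.317 without any 1 array. The membrane-bound metalloprotease MMP15 had 7.43 and 7.40 under Comp.4, against 7.14 and 7.03 in vehicle (difference 0.33, adjusted p = 0.169). PLAU had 7.62 and 7.61 under Comp.4, against 7.27 and 7.24 in vehicle (difference 0.35, 95% interval 0.18 to 0.53, adjusted p = 0.111). PLAT differed by 0.24 and PLAUR by 0.11.

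FN1 and SDC4 lay lower under Comp.4 without passing. FN1 had 9.60 and 9.64 under Comp.4, against 9.93 and 10.00 in vehicle (difference -0.35, 95% interval -0.52 to -0.17, adjusted p = 0.114). SDC4 had 8.10 and 8.11 under Comp.4, against 8.35 and 8.39 in vehicle (difference -0.26, 95% interval -0.43 to -0.10, adjusted p = 0.150). Neither gene's groups overlapped, as the naming rule required. The 4 laminin genes ranged from -0.07 to 0.14, the 3 TIMP genes from -0.12 to 0.10 and the 4 ADAM and ADAMTS genes from -0.10 to 0.04. Among collagens COL5A1, which helps set the width of fibrils, had -0.24 (adjusted p = 0.388), and COL4A1, COL4A2, COL1A1 and COL1A2 lay between -0.08 and 0.01. The other members lay between -0.17 (THBS1) and 0.18 (LOXL2).

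At the adjusted threshold 0 members were higher under Comp.4 and 0 lower, against background shares of 0.0536% and 0.0938%. At an unadjusted p under 0.05 limma gave 4 higher (10.3%, against 8.64% of all genes) and 2 lower (5.13%, against 7.88%). A limma fit of the 11197 genes above the median signal alone gave 1398 higher and 1712 lower at that threshold. Members whose groups did not overlap numbered 10 higher and 10 lower (25.6% each, against 27.2% and 22.2%), near the background. The median was 0.003, against 0.02 over all genes, and 20 members were above 0 (51.3%, against 54.9% of all genes). The median ran from -0.0086 to 0.056 without any 1 array, highest without the second Comp.4 array, with 17 to 22 members above 0. With a variance trend 3 were higher (MMP7, MMP15 and PLAU) and 2 lower (FN1 and SDC4). Over all 22395 genes that setting gave 488 higher and 738 lower. All 39 intervals lay within a 2-fold change and 34 within 1.41-fold.

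The third comparison set the compounds side by side at the same dose and day. SULF2 was 1.95-fold higher under Comp.2, at 8.65 ± 0.01 against 7.69 ± 0.08 under Comp.4 (n = 2 each), a difference of 0.97 (SE 0.08, 95% interval 0.77 to 1.16, adjusted p = 0.0187). This comparison shares the Comp.2 arrays with the first. With the replicate number as a block the limma adjusted p was 0.0545, with all probe sets 0.0655 and with these groups alone 0.0682. The call was lost in each, and in each 0 of the 22395 genes passed in either direction. It was also lost without any 1 array, where the difference ran from 0.91 to 1.02. SULF1 differed by 0.07 (95% interval -0.18 to 0.32) and did not pass.

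TIMP2 had 8.59 and 8.54 under Comp.2, against 8.14 and 8.16 under Comp.4, with a difference of 0.42 (95% interval 0.25 to 0.58, adjusted p = 0.0805). The Comp.4 level was near that of vehicle, from which it differed by -0.01 (95% interval -0.17 to 0.16). COL5A1 had 6.11 and 6.36 under Comp.2, against 5.94 and 5.67 under Comp.4 (difference 0.43, adjusted p = 0.198). COL4A1 had 6.70 and 6.92 under Comp.2, against 6.51 and 6.30 under Comp.4 (difference 0.41, adjusted p = 0.179). These collagen arrays did not overlap, as the naming rule required, but their gaps within a group reached 0.27. MMP7 went the other way, at 7.51 and 7.37 under Comp.2, against 7.74 and 7.79 under Comp.4 (difference -0.32, 95% interval -0.51 to -0.13, adjusted p = 0.157). LOXL2 also lay lower under Comp.2, at 8.43 and 8.51 against 8.78 and 8.66 under Comp.4 (difference -0.24, adjusted p = 0.239). Both syndecans lay higher under Comp.2, SDC1 by 0.23 and SDC4 by 0.20, without passing. PLAU differed by 0.24 (95% interval 0.06 to 0.41, adjusted p = 0.224).

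Between the compounds 1 member was higher under Comp.2, against a background of 0.179% of all genes, and 0 were lower, against 0.192%. At an unadjusted p under 0.05 limma gave 11 higher (28.2%, against 7.45%) and 2 lower (5.13%, against 7.52%). A limma fit of the 11197 genes above the median signal alone gave 1531 higher and 1338 lower at that threshold. The groups did not overlap in 19 higher members (48.7%, against 21.6%) and 4 lower ones (10.3%, against 23.7%). The median difference was 0.12, against -0.01 over all genes, and 29 members were above 0 (74.4%, against 47.7% of all genes). With a variance trend 5 passed as higher (SULF2, TIMP2, TIMP1, THBS1 and FN1) and 2 as lower (MMP7 and LOXL2). Over all 22395 genes that setting gave 591 higher and 484 lower. The 95% interval of 38 members lay within a 2-fold difference between the compounds, and that of 32 within 1.41-fold.

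**Figure D3:**
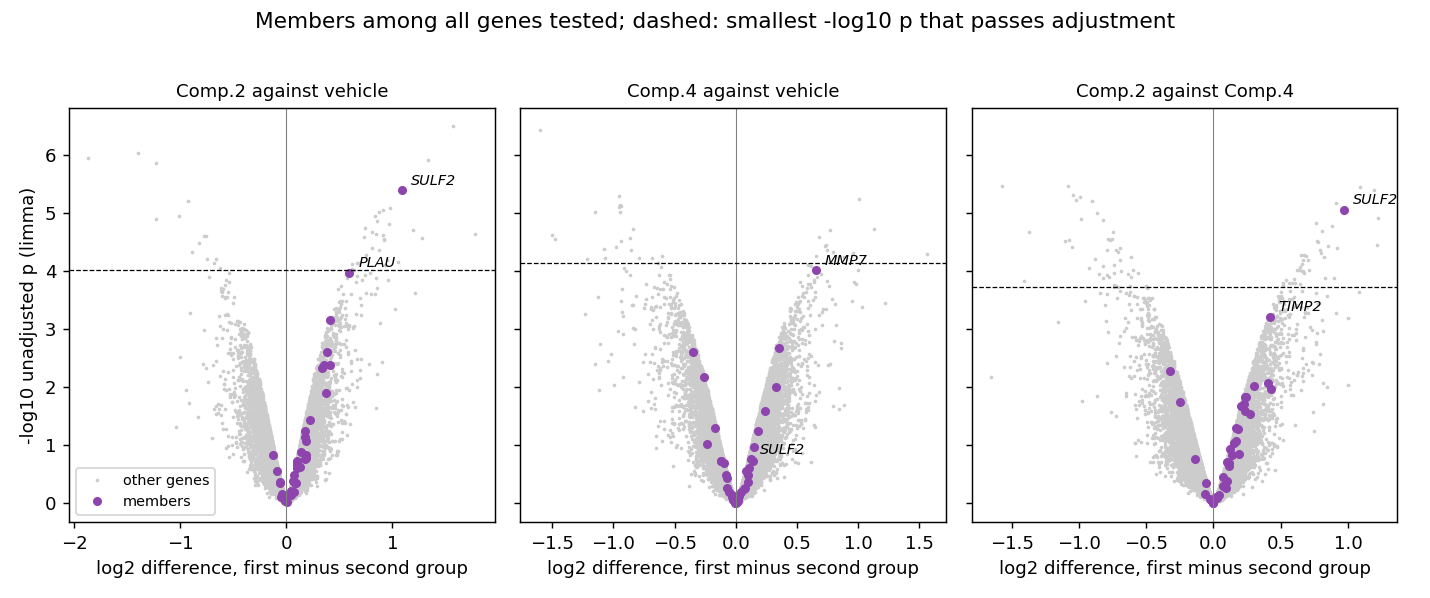
Unadjusted limma p on a -log10 scale (vertical axis) against the log2 difference (horizontal axis) for all 22395 genes in grey and the 39 members in purple, in the 3 comparisons. SULF2 lies above the dashed line of the smallest passing value at 1.09 and 0.97, while PLAU (0.59), MMP7 (0.65) and TIMP2 (0.42) lie below it.

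The wider pathway was read from 9 further lists, of which 157 of 169 genes were measured: other collagens, laminins and nidogens, matricellular and elastic fibre genes, collagen processing, further metalloproteases, the rest of the plasminogen route, heparan sulfate synthesis, further heparan sulfate core proteins, and matrix receptors. Against vehicle none passed under Comp.2 (18 higher and 7 lower at an unadjusted p under 0.05 with limma) and none under Comp.4 (11 and 5). These were 11.5% and 4.46% under Comp.2, against 6.23% and 4.94% of all genes, and 7.01% and 3.18% under Comp.4, against 8.64% and 7.88%, so that the Comp.4 shares lay below the background. Between the compounds 1 passed, FBN2, which encodes a fibrillin of elastic microfibrils. FBN2 had 6.79 and 6.93 under Comp.2, against 6.06 and 6.12 under Comp.4 and 6.37 and 6.33 in vehicle. It was 1.71-fold higher under Comp.2 than under Comp.4 (difference 0.77, SE 0.08, 95% interval 0.59 to 0.96, adjusted p = 0.0259), with vehicle between them. Against vehicle it differed by 0.51 under Comp.2 (adjusted p = 0.104) and by -0.26 under Comp.4 (0.186). For the compounds the limma adjusted p of FBN2 was 0.0671 with the block, 0.0655 with all probe sets and 0.0873 with these groups alone. No gene passed between the compounds in those settings. FBN2 did not pass without any 1 array either, and its difference there ran from 0.71 to 0.84.

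The genes that make or cut heparan sulfate chains, the substrate of SULF2, did not pass in any comparison. At an unadjusted p under 0.05 limma gave 0 higher and 3 lower under Comp.2 against vehicle (0.00% and 13.6%, with backgrounds of 6.23% and 4.94%). It gave 1 and 0 under Comp.4 against vehicle (4.55% and 0.00%, with backgrounds of 8.64% and 7.88%), and 1 and 2 between the compounds (4.55% and 9.09%, with backgrounds of 7.45% and 7.52%). These 22 genes had a median of -0.03 under Comp.2 against vehicle, with 3 whose arrays were all higher (13.6%, against 22.7% of all genes) and 8 all lower than vehicle (36.4%, against 21.0%). Their differences ran from -0.29 to 0.16, and under Comp.4 from -0.15 to 0.19. Of the 10 further heparan sulfate core proteins, HSPG2, the perlecan of basement membranes, had 8.01 and 8.09 under Comp.2, against 7.60 and 7.61 under Comp.4 and 7.57 and 7.71 in vehicle. Its difference was 0.41 against vehicle (adjusted p = 0.166) and 0.44 against Comp.4 (0.0953). GPC6, a glypican tethered to the membrane, had 7.70 and 7.75 under Comp.4, against 8.37 and 8.34 in vehicle (difference -0.63, adjusted p = 0.0574). Under Comp.2 it had 7.96 and 8.10, a difference of -0.32 from vehicle (adjusted p = 0.245).

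CCN1, a matricellular protein that binds integrins, had 7.91 and 8.02 under Comp.2, against 7.46 and 7.54 in vehicle (difference 0.46, adjusted p = 0.132). ADAMTS10, a protease linked to microfibrils, had 6.49 and 6.38 under Comp.4, against 6.80 and 6.88 in vehicle (difference -0.40, adjusted p = 0.0994). ITGA3, an integrin chain that binds laminins, had 9.43 and 9.45 under Comp.4, against 9.08 and 9.17 in vehicle (difference 0.31, adjusted p = 0.159). Under Comp.2 it had 9.40 and 9.56, a difference of 0.35 from vehicle (adjusted p = 0.236). BMP1, which cleaves the ends of procollagens, had 6.72 in both Comp.2 arrays, against 6.34 and 6.43 under Comp.4 (difference 0.34, adjusted p = 0.131). In each of these pairs the groups did not overlap. Whether some wider pathway genes passed against vehicle turned on the setting. Under a variance trend the limma adjusted p was 0.00791 for CCN1, 0.0136 for HSPG2 and 0.0141 for FBN2 under Comp.2. Under Comp.4 it was 0.00082 for GPC6 and 0.0171 for ADAMTS10. These genes also passed when genes above the median signal were tested alone. With all probe sets they did not pass, at 0.28, 0.316, 0.241, 0.0675 and 0.145 in that order. Over all 157 genes the median difference was 0.04 under Comp.2 and 0.01 under Comp.4 against vehicle. It was 0.02 between the compounds.

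**Figure D4:**
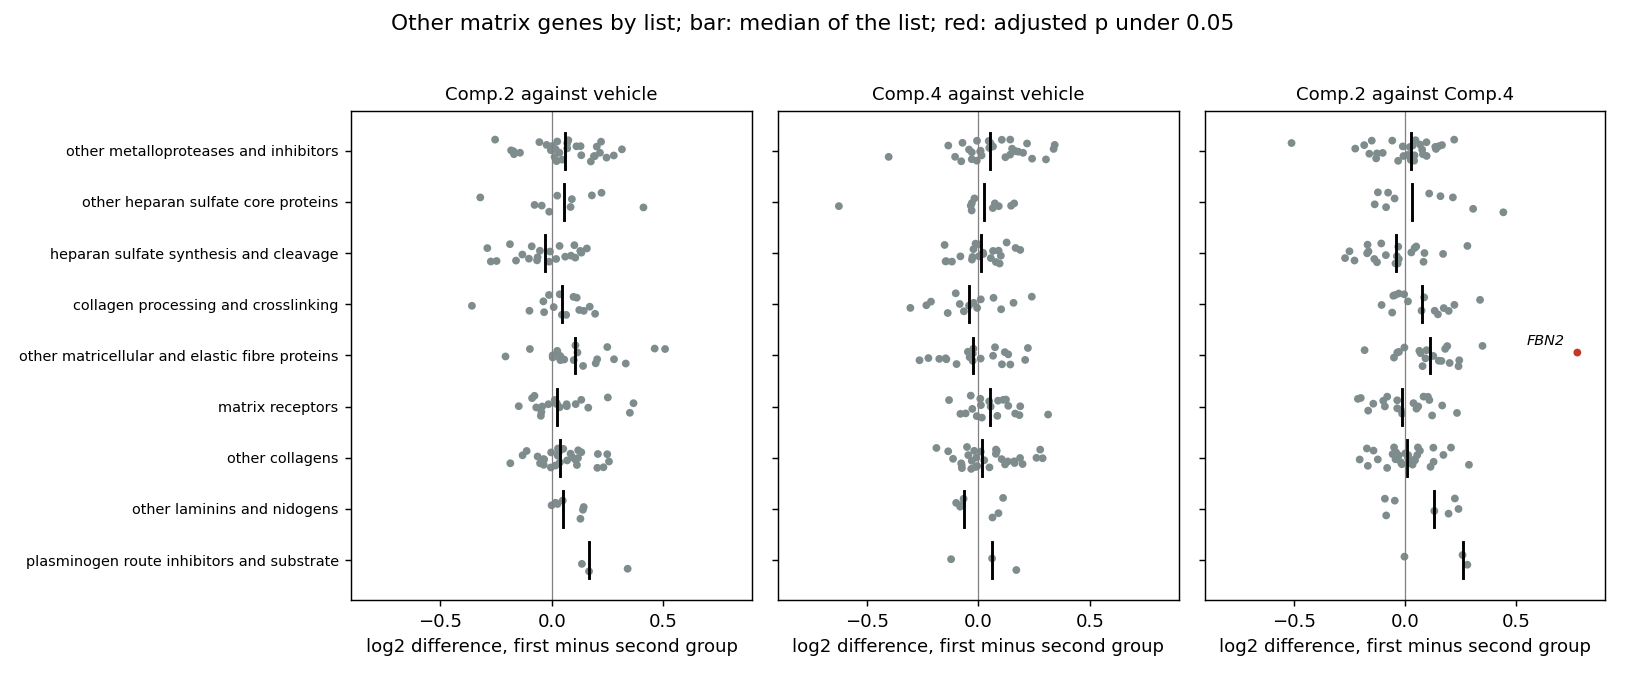
Log2 difference (horizontal axis, first minus second group) of the 157 other matrix genes, by list, in the 3 comparisons; points are genes and black bars list medians. FBN2, at 0.77 between Comp.2 and Comp.4, is the only gene marked as past the adjusted threshold.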

How the data were processed

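The authors deposited 1 log2 value per probe set and array, made with RMA, per the submitters' processing notes, where Transcriptome Analysis Console 2.0 and Affymetrix Expression Console 1.3.1 appear too. No genome build is given in the sources used here, and detection calls were not used here. Gene names came from the platform annotation, updated by Entrez number through a RefSeq table of GRCh38.p14. Of 53617 probe sets 23871 had 1 symbol, and the brightest probe set stood for a gene. With group means as the only terms, all 6 arrays entered 1 fit in limma 3.58.1 in R 4.3.3. The code was run on simulated data whose changes were larger than nearly all member differences. That run checks the code, not the calls made here. Two-sided p-values were adjusted by Benjamini-Hochberg over 22395 genes in each of 3 comparisons, with a threshold of 0.05. The number of arrays limits the precision. Exact permutation of 2 against 2 arrays gives no p under 0.333 and was not run. Lists and members were chosen with earlier results of these data known. Per-array values are given for members past the threshold, the 5 largest differences per comparison without overlap and both sulfatases. Differences of the other members are given by role. Of the wider lists, genes past the threshold and the 3 largest differences among the brighter genes (mean above the median gene) are named. PLAT and LOXL2 were named with arrays, and THBS1 and TIMP1 by count, after their values were seen. Alternatives were a variance trend, brighter genes, the mean of probe sets, all probe sets, protein-coding genes, a further quantile normalization, fewer groups, a replicate block and each array left out.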

Additional observations from a re-analysis of the deposited data

How the results depend on the processing

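SULF2 kept its sign in every alternative. Its difference could move only after a further quantile normalization or without an array of the groups compared. The other alternatives change the test alone, so its sign was fixed there. Its call against vehicle under Comp.2 held without either Comp.4 array and with only the groups compared (adjusted p = 0.0421 in each), and was lost when any 1 Comp.2 or vehicle array was left out. The number of members higher under Comp.2 than vehicle was 1, and became 5 under a variance trend, 4 with genes above the median signal, 2 with protein-coding genes alone (PLAU and SULF2) and 0 with all probe sets; without any 1 array it was 0 to 1. Under Comp.4 against vehicle it was 0 higher and 0 lower, and became 3 and 2 under a variance trend and 2 and 2 with genes above the median signal, with 0 to 0 for either without any 1 array. Comp.2 had 1 member higher than Comp.4, and this became 5 under a variance trend, 2 with genes above the median signal, and 0 with all probe sets, with only the groups compared, with the replicate block or without any 1 array. Members lower under Comp.2 than Comp.4 numbered 0, and became 2 under a variance trend and 1 with genes above the median signal. The alternatives differ in the number of arrays, in the number of tests or in how the spread was estimated. The cause of these shifts was not tested.

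Of 389 values of 28 named differences under alternatives, 325 kept direction and call, 36 newly passed, 23 no longer passed and 5 reversed. In many of these alternatives a difference could not move, so its direction was fixed and only the call could change. The reversals were all SULF1, which is dim: -0.019 for Comp.4 against vehicle after a further quantile normalization. Without 1 array its difference ran from -0.055 to 0.22 (Comp.2 against vehicle), -0.032 to 0.056 (Comp.4 against vehicle) and -0.067 to 0.21 (Comp.2 against Comp.4). The labels state no link between same-numbered arrays beyond the number. Their deviations correlated at 0.03 (Comp.2 and vehicle), 0.01 (Comp.4 and vehicle) and -0.04 (Comp.2 and Comp.4). Whether they shared a culture or batch was not tested. The replicate block gave 1 member higher under Comp.2 than vehicle.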
